A study of Mus musculus with 3 samples.

Results

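The cytochrome P450 genes were examined in neocortex taken at postnatal day 13 from 3 wild-type mice of the outbred stock CD1. Members were the probe sets annotated with exactly 1 gene symbol made of Cyp, a family number, a subfamily letter and a member number. This gave 46 probe sets for 46 genes, out of 23172 probe sets and 14806 singly named genes. Each animal had its own array, hybridised with biotin-labelled target made from Trizol-extracted total RNA, and the 3 animals formed a single group with no contrasting condition, so the arrays give the level of each gene and how far the animals differed in it.

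Cytochrome P450 enzymes are haem proteins that insert an oxygen atom into lipids, steroids, vitamins and foreign compounds. Most sit in the endoplasmic reticulum and take electrons from P450 oxidoreductase, while those of the mitochondrion take them from ferredoxin. The liver is known for the widest set of these enzymes, many of them acting on drugs and bile acids. Brain uses several for its own sterols, for retinoic acid and for fatty acid mediators, and removal of cholesterol from neurons by 24-hydroxylation is the best known of these.

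Values are log2 of the deposited intensity, with the SD over mice (n = 3). Each array was given its own background limit, the 95th percentile of 809 probe sets for chemosensory receptors (odorant, vomeronasal and trace amine), and these limits were 6.93, 6.79 and 6.77 in mice 1 to 3. Being above the limit here means passing it in all 3 mice. The limit is a guide, since other probes have other backgrounds, and the level of a probe set depends on its probes, so levels of different genes are not ranked. Median intensities were 248.1, 256.6 and 230.6 in mice 1 to 3. The lists of brain markers stand for cell types and do not mark neocortex against other brain regions. Above the limit were 6 of 6 neuronal, 4 of 4 astrocyte and 4 of 4 oligodendrocyte genes. Also above it were 5 of 5 microglial and 5 of 5 endothelial genes. So were 6 of 6 mural, 6 of 6 meningeal and fibroblast, and 5 of 5 choroid plexus genes, so transcripts of vessels, membranes and choroid plexus were measured too. Of liver markers 0 of 4 were above it, with Alb above it on 1 array (6.69 ± 0.25).

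Of the 46 P450 genes, 19 (41.3%) passed the limit in every mouse, compared with 73.9% of the 14938 singly named probe sets and 58.9% of all 23172. With the 99th percentile of the receptor probe sets as the limit, 11 of the 46 passed, and 60.4% of the singly named probe sets; Cyp4f14, Cyp4f15, Cyp26b1, Cyp4f13, Cyp27a1, Cyp39a1, Cyp11a1 and Cyp27b1 then did not. At the main limit a further 3 exceeded it on 2 arrays, 2 on 1 array and 22 on none. By family the calls were uneven: 3 of 20 genes of family 2 and 0 of 2 of family 3 were above the limit, against 6 of 8 of family 4. The members of families 11 (2 of 2), 27 (2 of 2), 20, 39 and 46 (1 of 1 each) were all above it. A probe set may also take up transcripts of close paralogs, and this was not tested.

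**Figure D1:**
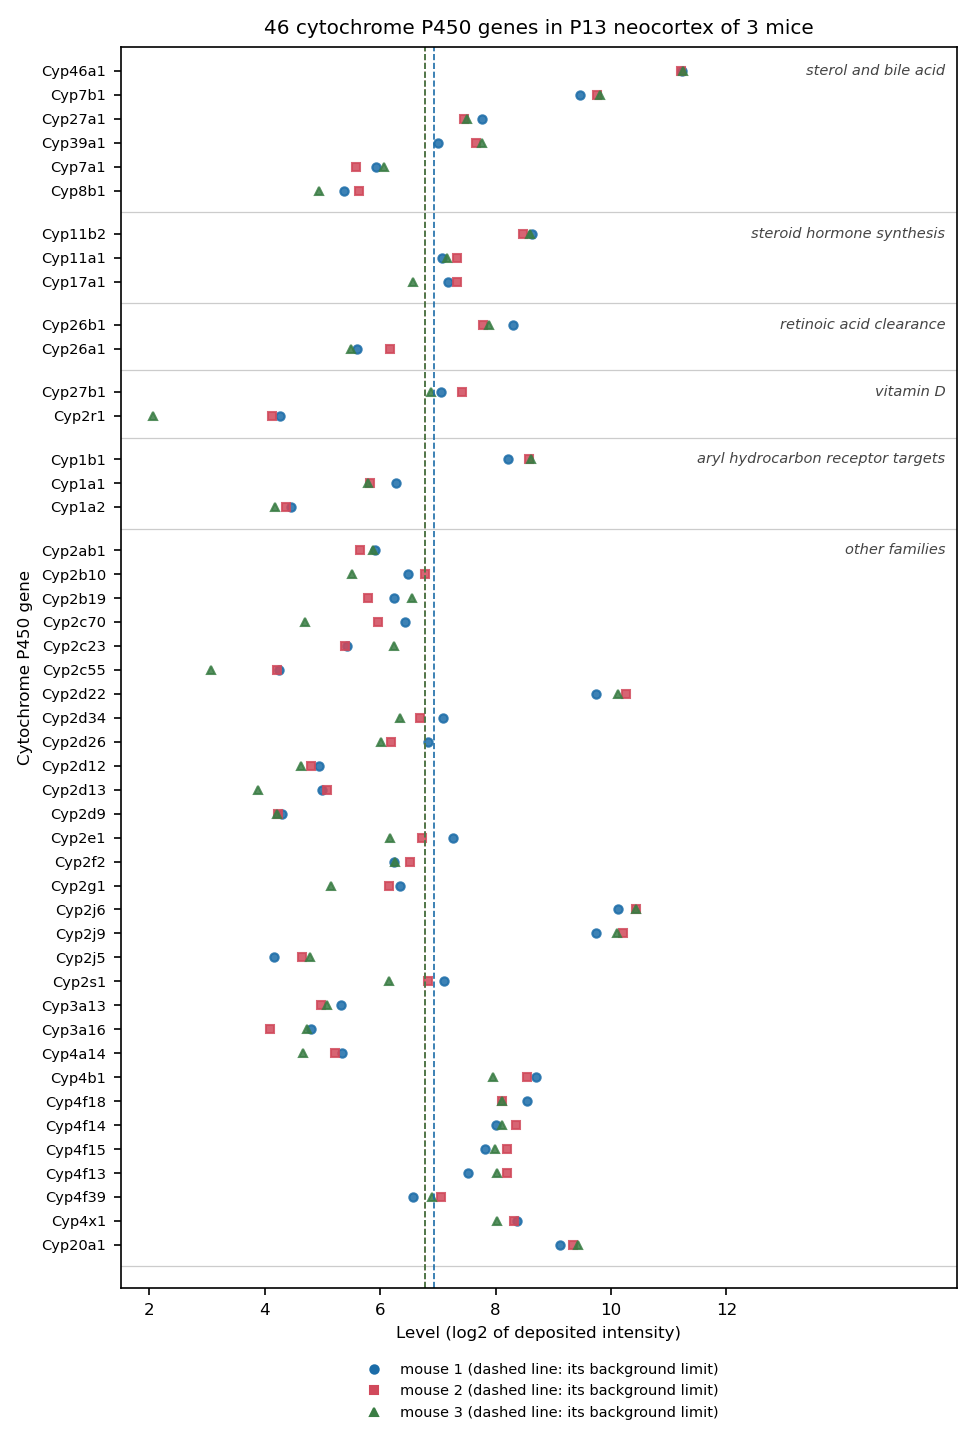
Level (log2 intensity, horizontal axis) of each of the 46 P450 genes in mouse 1 (circles), mouse 2 (squares) and mouse 3 (triangles), ordered by role, with each array's background limit as a dashed line. The 19 genes above the limit exceed the line of the same mouse on every array, and 22 genes exceed it on none.

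Of 6 P450 genes of sterol metabolism, 4 were above the limit, and the 2 not above it were Cyp7a1 and Cyp8b1, known from bile acid synthesis in liver. Cyp46a1 (probe set 6797893), the cholesterol 24-hydroxylase of neurons, had intensities of 2414, 2389 and 2441 in mice 1 to 3, or 11.24, 11.22 and 11.25 on the log2 scale. The highest animal was 1.02-fold over the lowest, so the mice were nearly equal on the deposited scale. The SD was 0.02 where limma's variance trend gave 0.18 for a gene of that level. Relative to the median deviations of probe sets of like level, Cyp46a1 stood at 0.13, -0.13 and 0.01 in mice 1 to 3. Cyp7b1 (6903454), the oxysterol 7-alpha-hydroxylase, which also hydroxylates pregnenolone and dehydroepiandrosterone, was at 9.46, 9.75 and 9.81, lowest in mouse 1. Cyp39a1 (6850537), which 7-alpha-hydroxylates the 24-hydroxycholesterol made by Cyp46a1, had levels of 7.01, 7.67 and 7.77, so that mouse 3 was 1.69-fold over mouse 1. Its value in mouse 1 was close to the limit of that array, while mice 2 and 3 were well clear of theirs. Cyp27a1 (6750566), the mitochondrial sterol 27-hydroxylase, was at 7.77, 7.45 and 7.50, highest in mouse 1.

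Cyp7a1, the rate-limiting enzyme of bile acid synthesis in liver, was at 5.92, 5.58 and 6.07. Cyp8b1, the sterol 12-alpha-hydroxylase that leads to cholic acid, was at 5.38, 5.63 and 4.94. All 6 values lay below the limits. Of 10 measured genes on a list for sterol and oxysterol handling, which also holds nuclear receptors and lipid carriers, 7 were above the limit. Ch25h, which makes 25-hydroxycholesterol, was not (5.25 ± 0.06), nor was Akr1d1, a reductase of bile acid synthesis (5.69 ± 0.39). The nuclear receptor Nr1h3 passed its limit on 2 arrays only (6.88 ± 0.33). Hsd3b7, which oxidises 7-alpha-hydroxylated sterols, was at 8.53 ± 0.11 and Hsd17b4, a peroxisomal enzyme of side-chain shortening, at 11.23 ± 0.23. Cyp51, the lanosterol demethylase of cholesterol synthesis and a P450 whose symbol lies outside the naming rule, was at 11.12, 10.97 and 11.19.

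The promoter of Cyp46a1 is shown because it holds more CpG dinucleotides, 23, than that of any other P450 gene with a sequence here. It spans the 250 bases before the annotated start (chr12:108334066-108334315, plus strand, RefSeq, GRCm38.p6), read 5′ to 3′ along the gene. Here and in the promoters printed further on, capitals mark CpG dinucleotides and the words TATAAA (the TATA box), GCGTG (core of the aryl hydrocarbon receptor element) and TGACCT (a nuclear receptor binding word), each on either strand. GCGTG itself holds a CpG.
Cyp46a1: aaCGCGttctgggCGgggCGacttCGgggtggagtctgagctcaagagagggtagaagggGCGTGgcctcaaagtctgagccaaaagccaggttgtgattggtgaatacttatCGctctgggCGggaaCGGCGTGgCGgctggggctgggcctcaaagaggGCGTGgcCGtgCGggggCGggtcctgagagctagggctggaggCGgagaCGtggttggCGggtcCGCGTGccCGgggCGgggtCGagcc

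GCGTG or its reverse complement occurred 4 times in that window, and TATAAA and TGACCT did not occur. Over all 27025 genes with a promoter sequence, 28.2% held GCGTG, 13% held TATAAA and 13.8% held TGACCT, and the median CpG count was 6. A match is a word in the sequence and not a measured binding site.

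Of 3 measured P450 genes of steroid hormone synthesis, 2 were above the limit. Cyp11a1 (6989440), which cleaves the cholesterol side chain to pregnenolone, was at 7.07, 7.32 and 7.16 and thus 0.36 above the mean limit. Cyp11b2 (6836714), the aldosterone synthase, was at 8.64, 8.48 and 8.60, with an SD of 0.08. Cyp17a1 (6873441), the 17-alpha-hydroxylase and 17,20-lyase, had levels of 7.18, 7.33 and 6.56, the last being below the limit of its array. The adrenal gland and gonad, the main tissues of these enzymes, had 1 of 4 markers above the limit: Nr5a1, a regulator of steroidogenic genes, was at 7.78, 7.43 and 7.15, while Star and Hsd3b1 were below it on every array and Mc2r above it on 1 array.

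A list of further genes tied to steroid synthesis was split in the same RNA, with 4 of 8 above the limit. The 4 were Tspo, Hsd17b3, Nr5a1 and Sult2b1, which are not all enzymes of synthesis. Star, Hsd3b1 and Nr5a1 are also among the adrenal and gonad markers above, so they are not separate evidence. Star, which delivers cholesterol to the inner mitochondrial membrane, was at 6.22, 5.85 and 5.02, and Hsd3b1, which turns pregnenolone into progesterone, at 4.50, 4.72 and 3.70. Tspo, the translocator protein of the outer mitochondrial membrane, was at 6.98, 7.57 and 7.51, and Hsd17b1, which reduces oestrone, at 7.72, 7.56 and 6.61, below the limit in mouse 3. Cyp11a1 and Cyp11b2 were therefore above the limit in RNA in which Star and Hsd3b1 were not.

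The enzymes that clear retinoic acid differed in their calls. Cyp26b1 (6955111) was at 8.31, 7.79 and 7.88, above the limit in every mouse and highest in mouse 1 (1.44-fold over mouse 2). Cyp26a1 (6869522), which oxidises the same substrate, was at 5.59, 6.17 and 5.49, below the limit in every mouse. Of 10 measured genes of the retinoid pathway 9 were above the limit. Rbp4, the retinol carrier of plasma, was at 9.99 ± 0.39, Stra6, its receptor, at 7.41 ± 0.16, Rdh10, which oxidises retinol, at 9.50 ± 0.04 and Aldh1a1, which makes retinoic acid from retinal, at 10.21 ± 0.17. Aldh1a3, another such dehydrogenase, was not above it (6.54 ± 0.20).

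The promoters of these retinoic acid enzymes are shown because the CpG counts run opposite to the calls: 7 for Cyp26b1 (chr6:84593811-84594060, minus strand) and 20 for Cyp26a1 (chr19:37697558-37697807, plus strand).
Cyp26b1: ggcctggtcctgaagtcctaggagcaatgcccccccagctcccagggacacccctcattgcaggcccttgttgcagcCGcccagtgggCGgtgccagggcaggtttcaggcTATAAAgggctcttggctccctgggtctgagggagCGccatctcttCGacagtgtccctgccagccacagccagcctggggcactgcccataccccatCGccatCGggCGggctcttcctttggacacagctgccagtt
Cyp26a1: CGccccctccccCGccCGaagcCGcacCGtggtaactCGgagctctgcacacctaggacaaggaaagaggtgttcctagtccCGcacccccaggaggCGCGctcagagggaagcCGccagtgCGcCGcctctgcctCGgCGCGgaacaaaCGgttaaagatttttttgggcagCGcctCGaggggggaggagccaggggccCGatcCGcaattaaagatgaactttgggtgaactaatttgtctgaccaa

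TATAAA occurred in the Cyp26b1 window, with its first base at -139 from the start, and not in that of Cyp26a1. TGACCT was found in neither of these windows. Only this exact word was searched for, so its absence does not show that a window lacks nuclear receptor sites.

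Vitamin D metabolism was represented by Cyp27b1 (6771535), the 1-alpha-hydroxylase that makes the active hormone, at 7.05, 7.42 and 6.88. Its mean was the nearest to the limit of the 19 genes above it, and it exceeded the limit by 0.11 in mouse 3. Cyp2r1 (6970673), a 25-hydroxylase of the preceding step known from liver, was at 4.26, 4.12 and 2.07. The drop in mouse 3 was the widest difference between animals among all members, 4.58-fold, but it came at intensities far below the limit. Vdr, the receptor, was below the limit at 5.34, 5.72 and 5.15, and its partner Rxra was above it at 9.18, 9.45 and 9.40.

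Among the targets of the aryl hydrocarbon receptor, 1 of 3 was above the limit. Cyp1b1 (6857483), which acts on oestradiol and retinol and is known from pericytes and fibroblasts, was at 8.21, 8.58 and 8.61, lowest in mouse 1. Cyp1a1 (6989422) was at 6.28, 5.83 and 5.80 and Cyp1a2 (6995924) at 4.45, 4.37 and 4.17, below the limit in every animal. The receptor Ahr itself was at 8.95 ± 0.08 and its dimer partner Arnt at 8.89 ± 0.06. Ahrr, the repressor of the receptor, was at 7.08 ± 0.28, and Nr1i2, the pregnane X receptor that induces hepatic P450 genes, was below the limit at 5.29 ± 0.39. In total 5 of 7 measured regulators of this kind were above it.

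Mural markers had median deviations from their means of -0.02, 0.10 and -0.22 in mice 1 to 3, and meningeal and fibroblast markers -0.33, 0.40 and -0.22. The mural markers were mixed: Pdgfrb and Cspg4 were highest in mouse 1, Acta2 and Kcnj8 were lowest there, and Rgs5 and Abcc9 lay between. The part of mural, meningeal and fibroblast cells in the level of Cyp1b1 was not tested. In bulk tissue, fewer cells of a type and less RNA per cell cannot be told apart.

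Promoters of this family are given for the gene above the limit and for a target known for its strong induction, Cyp1b1 (chr17:79715062-79715311, minus strand) with 12 CpG dinucleotides and Cyp1a1 (chr9:57697363-57697612, plus strand) with 3.
Cyp1b1: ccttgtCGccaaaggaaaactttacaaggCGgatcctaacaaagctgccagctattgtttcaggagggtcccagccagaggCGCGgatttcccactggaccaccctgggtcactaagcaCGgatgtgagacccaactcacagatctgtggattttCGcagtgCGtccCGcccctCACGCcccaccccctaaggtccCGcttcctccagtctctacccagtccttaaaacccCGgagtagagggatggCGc
Cyp1a1: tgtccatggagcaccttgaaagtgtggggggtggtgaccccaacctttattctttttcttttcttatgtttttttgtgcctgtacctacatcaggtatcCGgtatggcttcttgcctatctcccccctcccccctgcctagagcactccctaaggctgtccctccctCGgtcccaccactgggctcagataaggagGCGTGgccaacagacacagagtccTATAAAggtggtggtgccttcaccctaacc

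Each window held 1 copy of GCGTG on either strand, at -76 for Cyp1b1 and at -54 for Cyp1a1, counted from the start to the first base of the match. TATAAA was present in Cyp1a1 at -30 and not in Cyp1b1.

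Enzymes of the Cyp2j subfamily include ones that oxidise arachidonic acid, and the Cyp2j genes stand next to each other in the genome. Cyp2j6 (6923520) was at 10.11, 10.43 and 10.44, and Cyp2j9 (6923525), a mouse enzyme known from brain, at 9.74, 10.21 and 10.11. Both were above the limit in every mouse and lowest in mouse 1, by 1.25-fold and 1.39-fold against the highest animal. Cyp2j5 (6923526), the next protein-coding gene along, known from kidney and liver, was at 4.16, 4.65 and 4.78, below the limit in every mouse. These 3 neighbours lie in an unbroken run of 7 Cyp2j genes in RefSeq order (assembly GRCm38.p6), and the other 4 are not members. Runs here and below were judged among protein-coding genes only.

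Their promoters are printed to show neighbours with different calls: Cyp2j6 (chr4:96553652-96553901, minus strand), Cyp2j9 (chr4:96591486-96591735, minus strand) and Cyp2j5 (chr4:96664120-96664369, minus strand), with 3, 4 and 2 CpG dinucleotides.
Cyp2j6: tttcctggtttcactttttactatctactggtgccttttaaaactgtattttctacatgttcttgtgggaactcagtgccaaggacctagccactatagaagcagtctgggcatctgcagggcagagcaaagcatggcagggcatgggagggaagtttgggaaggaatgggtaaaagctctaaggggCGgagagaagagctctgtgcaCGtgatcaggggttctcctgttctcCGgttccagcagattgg
Cyp2j9: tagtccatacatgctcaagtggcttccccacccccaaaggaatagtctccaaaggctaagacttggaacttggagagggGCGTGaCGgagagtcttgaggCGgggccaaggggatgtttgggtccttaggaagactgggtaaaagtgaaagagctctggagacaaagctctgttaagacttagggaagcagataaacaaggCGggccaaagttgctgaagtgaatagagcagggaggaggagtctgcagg
Cyp2j5: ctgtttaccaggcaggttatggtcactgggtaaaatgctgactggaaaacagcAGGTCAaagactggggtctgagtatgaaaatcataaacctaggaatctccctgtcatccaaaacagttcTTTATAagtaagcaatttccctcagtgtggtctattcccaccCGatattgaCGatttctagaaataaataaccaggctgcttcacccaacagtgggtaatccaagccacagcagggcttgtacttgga

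The Cyp2j5 window held TATAAA at -128 and TGACCT at -197, each as its reverse complement, and the other 2 windows held neither word. GCGTG was found in Cyp2j9 alone of these 3, at -171.

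Of 9 measured genes on a list for fatty acids and eicosanoids, which holds enzymes and the nuclear receptors Ppara and Pparg, 8 were above the limit. Ephx1 and Ephx2, the microsomal and soluble epoxide hydrolases, were at 9.57 ± 0.19 and 8.87 ± 0.10. Ephx4, a related hydrolase, was at 9.97, 10.97 and 10.57, and Pla2g4a, which frees arachidonic acid from membranes, at 8.92 ± 0.13. Alox12, a lipoxygenase, was not above it (5.51 ± 0.62). Of the eicosanoid P450 enzymes named outside the rule, the prostacyclin synthase Ptgis was above the limit at 7.18, 7.55 and 6.81. The thromboxane synthase Tbxas1 was at 6.73, 7.27 and 7.94, below the limit in mouse 1 only.

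In the Cyp2d subfamily 1 of 6 genes was above the limit. Cyp2d22 (6837375), often set beside human CYP2D6, was at 9.75, 10.25 and 10.12. Its 5 relatives Cyp2d34, Cyp2d26, Cyp2d12, Cyp2d13 and Cyp2d9 had mean levels between 4.24 and 6.71, and of these only Cyp2d34 exceeded the limit on any array, in mouse 1 (7.09). RefSeq lists Cyp2d13 as a transcribed pseudogene. Cyp2d9, a male-specific hepatic gene, was at 4.30, 4.22 and 4.21, and Cyp2d22 and Cyp2d9 lie in 1 run of 4 neighbouring P450 genes.

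Genes of family 4, which mostly hydroxylate the end of fatty acid chains, were above the limit in 6 of 8 cases. Cyp4x1 (6924706), known for expression in brain, was at 8.37, 8.32 and 8.03. Cyp4b1 (6924721), known from lung, was at 8.71, 8.54 and 7.96, so that mouse 1 was 1.68-fold over mouse 3. Cyp4a14, a fatty acid hydroxylase induced through PPAR-alpha in liver, was at 5.34, 5.21 and 4.67, below the limit in every animal. Cyp4x1, Cyp4a14 and Cyp4b1 lie in 1 run of 10 neighbouring P450 genes, so a shared neighbourhood went with different calls here as well.

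Of the 5 Cyp4f genes, whose enzymes include hydroxylases of leukotriene B4, 4 were above the limit. Cyp4f13 (6854910) was at 7.53, 8.19 and 8.02, Cyp4f14 (6854909) at 8.01, 8.36 and 8.11, and Cyp4f15 (6849893) at 7.81, 8.19 and 7.98. In all 3 genes mouse 1 had the lowest level and mouse 2 the highest. Cyp4f18 (6983299), the neutrophil leukotriene hydroxylase, was instead highest in mouse 1, with levels of 8.55, 8.12 and 8.11. Cyp4f39 (6849890), which makes the very long hydroxylated fatty acids of the skin barrier, was at 6.58, 7.05 and 6.89. Its mean was the nearest to the mean limit among the genes not above the limit. The gene missed the limit in mouse 1 and exceeded it in mice 2 and 3.

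Cyp20a1 (6749813), a P450 without an established substrate, was at 9.12, 9.35 and 9.42, above the limit in every mouse. The remaining genes of families 2 and 3 were not above the limit: the 2 Cyp2b, 3 Cyp2c and 2 Cyp3a genes exceeded it on no array. Single values ran from 5.51 to 6.77 in Cyp2b10 and Cyp2b19, from 3.06 to 6.43 in Cyp2c70, Cyp2c23 and Cyp2c55, and from 4.08 to 5.32 in Cyp3a13 and Cyp3a16. Cyp2f2, known from the airway, Cyp2g1, known from the olfactory mucosa, and Cyp2ab1 were likewise below it in every mouse, with means of 6.34, 5.88 and 5.81. Cyp2e1, which oxidises ethanol, had levels of 7.26, 6.72 and 6.16 and passed the limit in mouse 1 only. Cyp2s1, known from epithelia, exceeded the limit in mice 1 and 2 (7.11 and 6.82) and not in mouse 3 (6.16).

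In the genome order of protein-coding genes, 21 members lay in runs of 3 or more neighbouring P450 genes. A further 6 lay in runs of 2 and 18 stood alone, the remaining member being the pseudogene Cyp2d13. Above the limit were 6 of the 21, 3 of the 6 and 10 of the 18, beside 41.3% of all members. Of all singly named probe sets 73.9% were above it. Many genes of the large runs are close copies, and 22 further probe sets name several P450 genes at once. These are not members, no gene is named from them, and 3 of the 22 were above the limit, against 58.9% of all probe sets.

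P450 enzymes carry haem, and most take electrons from partner proteins. A list of 10 genes for such partners had 5 measured members, all above the limit. P450 oxidoreductase was not analysed here. The 5 were Pgrmc1, a haem-binding protein that associates with P450 enzymes, at 12.28 ± 0.29, and 4 genes of electron transfer, among them Cyb5a and Cyb5b, cytochromes b5 of the endoplasmic reticulum and of mitochondria, at 11.66 ± 0.20 and 11.08 ± 0.31. Cyb5r3, their reductase, was at 10.54 ± 0.10 and Fdx1, the mitochondrial ferredoxin, at 8.90 ± 0.31. The 7 measured genes of haem synthesis were all above the limit and included Alas1, its first enzyme, at 11.15 ± 0.11, Alad at 11.38 ± 0.12, Uros at 10.04 ± 0.19 and Urod at 9.64 ± 0.18. Over the 9 lists of partner genes, 48 of 61 measured genes (78.7%) were above the limit, against 73.9% of all singly named probe sets. The lists include that of P450 genes named outside the rule, with 2 of 3 above the limit. Of the 61 genes, 0 passed the variance test described next. The partner genes below the limit were named after their values were seen.

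No P450 gene passed the test for a spread between mice beyond that of probe sets of like level. Limma's variance test, with Benjamini-Hochberg adjustment over 13649 probe sets, called 0 of the 19 members above the limit (adjusted p from 0.951 to 0.999), where 9 of all 13649 (0.0659%) were called. At an unadjusted p under 0.05 there were also 0 of 19, where 5.27% of all probe sets lay, and the smallest unadjusted p of limma's test was 0.0569, for Cyp4b1. This count depended on the setting: in 7 of 9 alternatives 1 or 2 members had an unadjusted p under 0.05, namely Cyp39a1, Cyp4b1 or, with all probe sets tested, Cyp2c70, and none passed the adjustment. The median SD of the 19 was 0.19, against 0.16 over all singly named probe sets above the limit, and the highest and lowest mouse differed by 1.02-fold to 1.69-fold with a median of 1.30-fold. The widest were Cyp39a1 (SD 0.41), Cyp4b1 (0.39) and Cyp4f13 (0.35). With 3 animals, a test that makes no call does not show that the animals were alike.

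**Figure D2:**
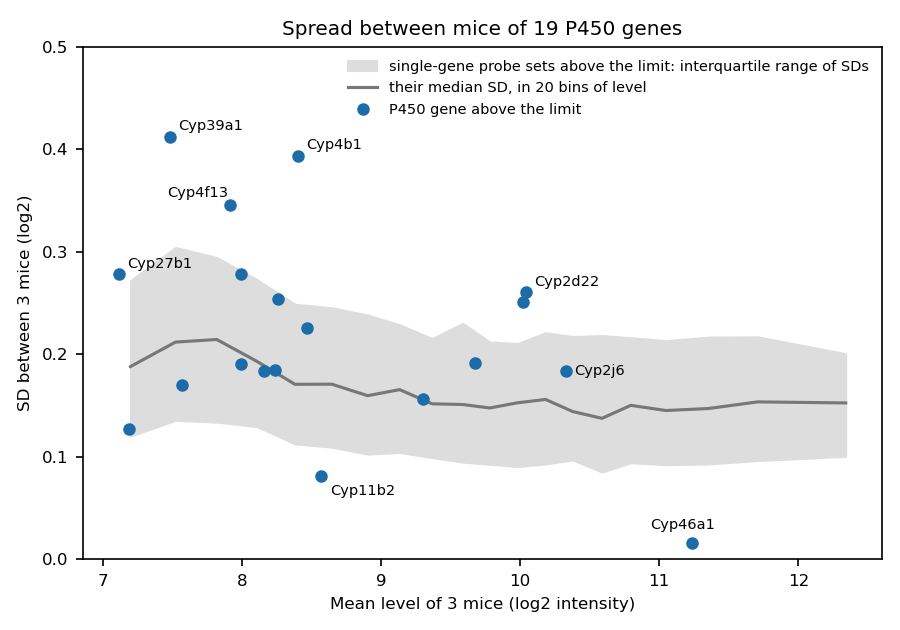
SD between the 3 mice (log2, vertical axis) against mean level (log2 intensity, horizontal axis) for the 19 P450 genes above the limit (points), with the median SD (line) and the interquartile range of SDs (band) of all singly named probe sets above the limit in 20 bins of level. Cyp39a1 (0.41), Cyp4b1 (0.39) and Cyp4f13 (0.35) are among the genes above the band, several others lie at its upper edge, and Cyp46a1 (0.02) and Cyp11b2 (0.08) lie below it.

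The pattern over mice was mixed. Mouse 1 had the lowest level for 11 of the 19 genes (57.9%), against 53.8% of all singly named probe sets above the limit. In mouse 2, 7 (36.8%) were highest, against 59.8% of those probe sets, and in mouse 3, 6 (31.6%) were highest, against 15%. Only 4 (21.1%) were lowest in mouse 3, against 34.7%. Relative to each gene's own mean, the median P450 gene stood at -0.15, 0.11 and 0.02 in mice 1 to 3, and the median of all such probe sets at -0.07, 0.10 and -0.02. Cyp26b1, Cyp4b1, Cyp4f18 and Cyp27a1 were highest in mouse 1, by 0.32, 0.30, 0.29 and 0.19 over their means. Endothelial markers had a median deviation of 0.24 in mouse 1, -0.04 in mouse 2 and -0.20 in mouse 3, but they were split. Pecam1, Kdr and Flt1 were highest in mouse 1, while Cldn5 (9.59, 9.70 and 9.61) and Slco1c1 (11.43, 11.61 and 11.45) were lowest there. The part of endothelial cells in the levels of these P450 genes was not tested.

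**Figure D3:**
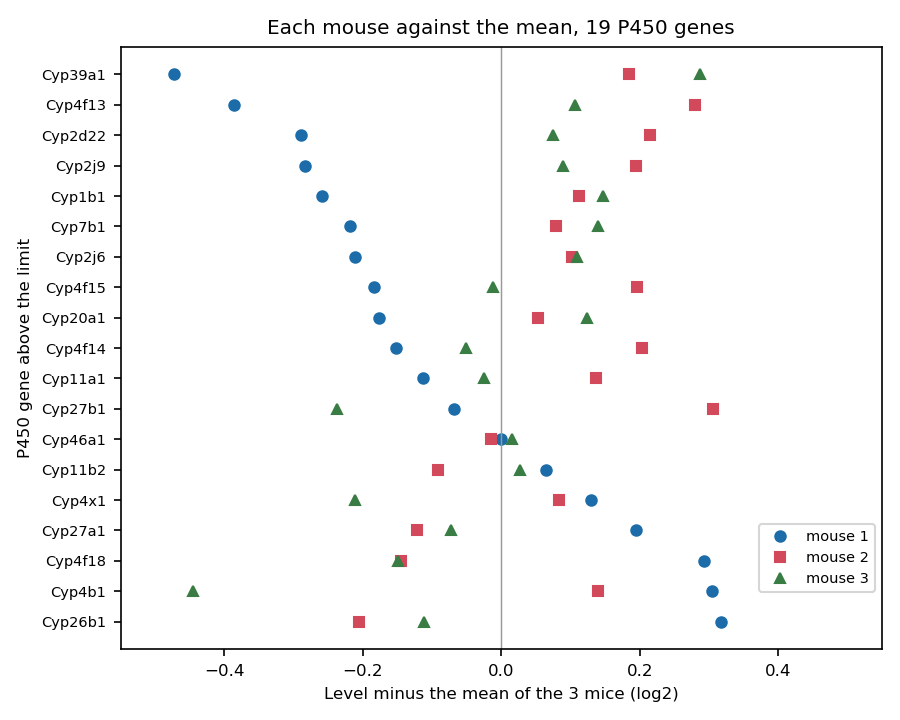
Level of each of the 19 P450 genes above the limit in mouse 1 (circles), mouse 2 (squares) and mouse 3 (triangles), as the difference from the mean of the 3 mice (log2, horizontal axis). Mouse 1 is the lowest for 11 genes, with Cyp39a1 at -0.47, and the highest for 6, with Cyp26b1 at 0.32.

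The 27 genes not above the limit differed between mice in another way: 18 (66.7%) were lowest in mouse 3, where 54.5% of all singly named probe sets not above the limit were. Their highest level was in mouse 1 for 16 (59.3%, against 48.9%) and in mouse 2 for 7 (25.9%, against 34.2%). Their median deviation was 0.19 in mouse 1, 0.12 in mouse 2 and -0.26 in mouse 3, against 0.15, 0.06 and -0.17 for those probe sets. The low values of Cyp2r1, Cyp2c70 (6.43, 5.96 and 4.70) and Cyp2c55 (4.25, 4.22 and 3.06) in mouse 3 were thus in the direction of most dim probe sets.

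Promoter sequence was matched for 33 of the 46 members by gene ID, 14 above the limit and 19 not. For the genes with several starts (2 of 33) the first listed start was used. The median CpG count in the 250 bases before the start was 3.5 for members above the limit and 3 for those not above it, while it was 15 for all singly named genes above the limit and 3 for those not above it. Windows with 10 or more CpG were found in 3 of 14 members above the limit, namely Cyp46a1, Cyp20a1 and Cyp1b1, where 72% of all genes above the limit had such a window. Among members not above it there were 4 of 19 (21.1%): Cyp26a1, Cyp2r1, Cyp2s1 and Cyp4f39. Of all singly named genes not above the limit 20% had such a window.

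TATAAA on either strand was present in 1 of 14 members above the limit (Cyp26b1, at -139) and in 10 of 19 not above it, or 52.6%. The same word was in 6.73% of all singly named genes above the limit and 22.2% of those not above it. In 8 of those 19 its first base lay between -35 and -25, where a TATA box is found, against 0 of 14 members above the limit. Those 8 were Cyp1a1, Cyp1a2, Cyp2c55, Cyp2c70, Cyp2d9, Cyp2d26, Cyp2e1 and Cyp8b1. The word stood in that place in 5.8% of all singly named genes not above the limit, in 1.53% of those above it and in 2.35% of all genes with a promoter sequence. These counts describe the windows and were given no test.

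**Figure D4:**
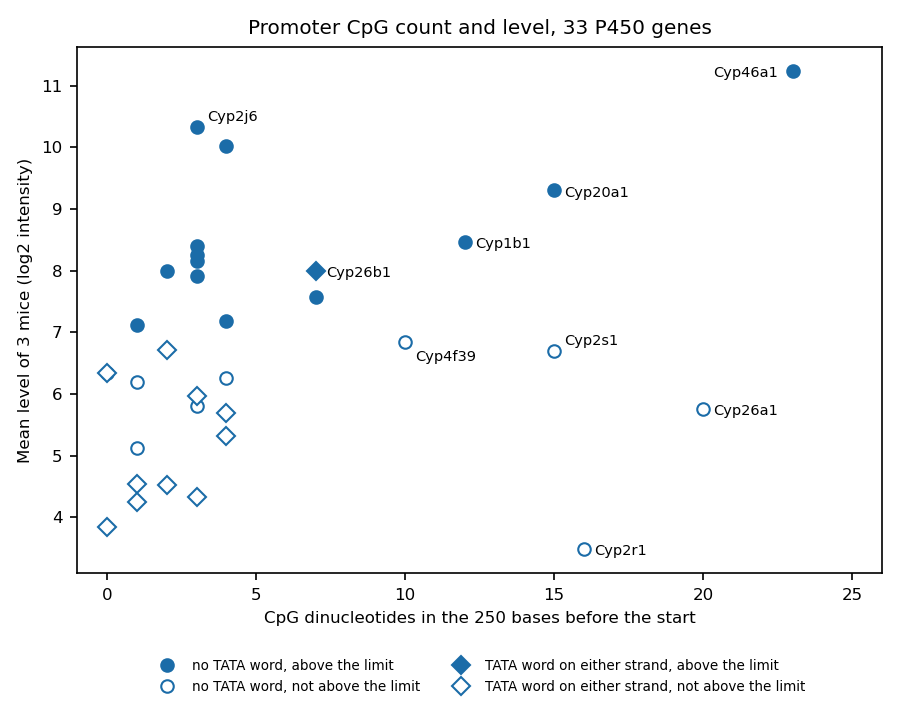
Mean level of 3 mice (log2 intensity, vertical axis) against the CpG count of the 250 bases before the start (horizontal axis) for 33 P450 genes, with filled symbols for genes above the limit and diamonds for windows that hold the TATA word. Most genes of either call have fewer than 10 CpG, and 10 of the 11 diamonds are genes not above the limit.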

How the data were processed

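For each of 23172 probe sets the authors deposited an intensity per array, not yet in log form. The submitters' processing notes list Affymetrix Power Tools and the build mm8, and how background was corrected and arrays were normalized is not given in the sources used here. Values were taken to log2 with no pseudocount. The platform annotation gave 14938 probe sets 1 gene symbol, 989 several and 7245 none, and all 46 members matched RefSeq by Entrez ID. The number of arrays limits the precision. The background limit was the 95th percentile, per array, of 809 probe sets for sensory receptors, of which 27 were above it on all 3 arrays.

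Variance between mice was tested with limma 3.58.1 (R 4.3.3): each probe set above the limit on all 3 arrays was compared with a robust variance trend over level. Benjamini-Hochberg adjustment was over all 13649. The test was also run on data simulated from its own fitted model, with planted SDs far wider than those of the members. That run does not show its power at the spreads of the members. The 3 mice were the only group, so no conditions were compared. All members above the limit and those nearest to it or central to a role were named. Members, gene lists and tests were chosen with earlier results of these data known, and the CpG minimum of 10 and the printed promoters after values were seen. Promoter sequences are from RefSeq (GRCm38.p6) and were not given here for 13 members. Alternatives were other limits, quantile normalization, centring, a pseudocount of 16, other variance priors and leaving out each mouse. Protein sequences were not used here.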

Additional observations from a re-analysis of the deposited data

How the results depend on the processing

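No paired analysis was possible because the 3 mice form a single group. The count of 19 members above the limit became 11 with the 99th percentile of the receptor probe sets and 24 with the 90th, against 60.4% and 80.2% of all singly named probe sets. It was 21 when only the mean over mice had to pass and 19 to 21 when each mouse was left out. Neither change can lower the count. With quantile normalization, with centring and with a pseudocount of 16 it stayed at 19. Those settings keep the order of values within an array, so they could hardly change the calls. Adding receptor probe sets that name several genes to the limit, chosen after seeing the data, left 19. Cyp4f14, Cyp4f15, Cyp26b1, Cyp4f13, Cyp27a1, Cyp39a1, Cyp11a1 and Cyp27b1 were not above the 99th percentile. The other 11 were above the limit in all 11 alternatives, but few of these could have removed them. The 90th percentile, the mean over mice and leaving out a mouse always keep a gene that passed on every array. Taking the mean over probe sets repeats the main setting, since each member gene has 1 probe set. Limma's variance test called 0 of the members in all 9 alternatives, with the smallest adjusted p per setting from 0.895 to 0.991 and the smallest unadjusted p of limma's test from 0.0271 to 0.0591, and leaving out each mouse gave 0 throughout. Over all probe sets it called between 2 and 27. The number of members lowest in mouse 1 was 11, with 12 after quantile normalization and 11 after centring. The pseudocount moved the level of 1 of the 19 members above the limit and of 16 of the 27 others by over 1 SD. Signal over background limits what can be said of the 27 members not above it: these values do not show that their transcripts were absent.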
